A study of Homo sapiens with 10 samples.

Results

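This report describes 6 genes of the NODAL pathway in human induced pluripotent stem cells (hiPSCs): NODAL, TDGF1, LEFTY1, LEFTY2, GDF3 and FGF2. They were chosen by name, 6 of 20033 protein-coding genes with an annotated canonical start, and each was studied as its GENCODE gene body with 10 kb on either side. The 6 windows cover 251.374 kb and hold 1330 of the 12921589 nucleosome positions in the list, or 0.0103%, at 5.29 positions per kb. The cells were of the hiPSC line PB010.5, a single line that carries a FUCCI cell cycle reporter, digested for 5 min with MNase, an enzyme that cuts the DNA between nucleosomes, at 5 amounts from 0.5 U to 10 U (1 U, 3 U and 6 U between them). The library of each digestion went through a deep run of 150-bp read pairs and a shallow run of 50-bp pairs, so the 10 samples are 1 of each kind. All values below come from a single list of positions, which the authors made from pooled libraries. It gives nothing per library or MNase amount, so there is no replicate error and no statistical test is possible. The depth behind a position is unknown, and expression was not measured here, so the cell type was not checked against its markers.

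NODAL is a secreted ligand of the TGF-beta family that signals through activin receptors and SMAD2 and SMAD3, together with the DNA-binding partner FOXH1, and it helps to keep human pluripotent cells undifferentiated. TDGF1 (CRIPTO) is its membrane-bound co-receptor, LEFTY1 and LEFTY2 are secreted antagonists that are themselves targets of the pathway, GDF3 is a related ligand, and FGF2 is the growth factor supplied to human pluripotent cultures. Nucleosomes are the units of DNA wrapped around histones, and many active starts have a stretch with few nucleosomes just upstream and a positioned nucleosome just downstream.

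Called positions span 140 bp each and carry a score, a signal never below 0 whose scaling the authors do not state. Scores move in steps of 1.23. Over the whole list the median score was 14.8, with quartiles of 9.87 and 19.7 and a highest value of 149.3. A position was placed by its midpoint, and distances are from the canonical start in the direction of transcription, negative upstream. Positions differ in base composition, so each window was set against every window of the same length and chromosome with a GC content within 1 percentage point. These matched windows are a description of the chromosome, not replicates.

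The DNA just upstream of the starts is shown first, because its coverage by called positions differed between the genes. The sequences are from RefSeq on GRCh38.p14, run 5′ to 3′ toward the start, and have capitals where a called position covers the base. An entry was found for 4 of the 6 genes, and LEFTY1 and LEFTY2 had none. The FGF2 run stops where an annotated longer transcript begins.
TDGF1 (chr3:46577538-46577787, plus strand): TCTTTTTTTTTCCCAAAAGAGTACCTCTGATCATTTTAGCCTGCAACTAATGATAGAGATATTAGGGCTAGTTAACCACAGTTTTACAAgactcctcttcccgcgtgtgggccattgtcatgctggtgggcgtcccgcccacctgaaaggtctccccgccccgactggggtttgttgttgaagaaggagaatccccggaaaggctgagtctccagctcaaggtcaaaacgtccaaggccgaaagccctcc
NODAL (chr10:70441682-70441931, minus strand): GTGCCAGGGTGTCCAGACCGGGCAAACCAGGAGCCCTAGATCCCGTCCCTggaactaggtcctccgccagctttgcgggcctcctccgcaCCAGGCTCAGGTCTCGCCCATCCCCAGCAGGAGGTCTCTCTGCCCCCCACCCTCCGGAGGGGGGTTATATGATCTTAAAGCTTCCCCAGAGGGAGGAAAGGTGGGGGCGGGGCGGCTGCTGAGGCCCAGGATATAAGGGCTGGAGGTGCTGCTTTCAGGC
GDF3 (chr12:7695776-7696025, minus strand): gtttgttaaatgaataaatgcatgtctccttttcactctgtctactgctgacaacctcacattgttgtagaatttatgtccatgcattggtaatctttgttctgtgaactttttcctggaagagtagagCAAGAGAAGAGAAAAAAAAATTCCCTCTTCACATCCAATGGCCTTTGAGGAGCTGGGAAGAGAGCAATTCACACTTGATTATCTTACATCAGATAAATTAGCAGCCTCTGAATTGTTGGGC
FGF2 (chr4:122826581-122826681, plus strand): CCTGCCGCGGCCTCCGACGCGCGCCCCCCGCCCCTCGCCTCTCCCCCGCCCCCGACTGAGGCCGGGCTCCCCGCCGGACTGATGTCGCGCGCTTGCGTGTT

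Of the 250 bases printed for TDGF1, 89 were covered and 161 were not. NODAL had 210 covered and 40 uncovered bases, GDF3 had 121 and 129, and all 101 bases printed for FGF2 were covered. The FGF2 run ends before its longer transcript, whereas the other runs end at the canonical start. Across the canonical FGF2 start, 190 bp were uncovered. The FGF2 stretch was the richest in G and C, at 80.2% with 17 CG dinucleotides, and the GDF3 stretch the poorest, at 38.4% with 0. NODAL (65.2%) and TDGF1 (51.2%) each had 9.

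At the NODAL start (minus strand, chr10:70431936-70447951, canonical start 70441681) the nearest upstream midpoint lay at -91 bp with a score of 23.4 and the nearest downstream one at 49 bp with a score of 13.6. The 2 midpoints were 140 bp apart, so the intervals met with no uncovered base between them. Of 19973 protein-coding starts with a position on either side, 10.7% had a shorter distance across the start. At the other NODAL start, 70447951, the scores were 19.7 upstream and 33.3 downstream, 150 bp apart.

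At TDGF1 (plus strand, chr3:46574534-46582457, start 46577788) the nearest midpoints were at -231 bp (score 9.87) and 214 bp (score 17.3). The 445 bp between them was the widest of the 6, and 91.3% of all genes had a shorter distance. It left 305 bp uncovered. That stretch has a copy of 98.7% identity on chromosome X, described below, whose part in the distance was not tested. At the most upstream of the 5 annotated TDGF1 starts, 46574534, the distance was 140 bp, and at the most downstream, 46579142, it was 260 bp. Among the 6 genes, TDGF1 was the 1 with no midpoint in the 200 bp upstream of its canonical start, a property of 26.7% of all genes.

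The antagonists LEFTY1 (minus strand, chr1:225886282-225911382, start 225889146) and LEFTY2 (minus strand, chr1:225936598-225941383, start 225941220) had the highest scores at their canonical starts. LEFTY1 had a midpoint at -86 bp with a score of 40.7, above 99.2% of the positions on its chromosome. The next one, at 164 bp, had a score of 19.7. Among positions of the chromosome with a GC content within 1 percentage point, these 2 were above 94.5% and 40.5%. LEFTY2 had midpoints at -52 bp (score 30.8) and 128 bp (score 34.5), above 74.5% and 86.7% of positions matched in this way. The distances across were 250 bp and 180 bp. At the other LEFTY1 start, 225911382, the scores were 45.7 upstream and 46.9 downstream, 300 bp apart, with no midpoint in the 200 bp upstream. The other LEFTY2 starts had 25.9 and 30.8 (225941383) and 24.7 and 19.7 (225940101). Both genes had the letters TATAAA once within 500 bp of the start, on the sense strand at -27 bp, and in both genes a called position covered them. These letters were found near 2 of the 6 starts and near 23.3% of all 20033 starts, searched on both strands.

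At GDF3 (minus strand, chr12:7689784-7695775, start 7695775) a position with a score of 25.9 had its midpoint at -52 bp, so that it covered the start itself. The next midpoint, at 203 bp, had a score of 8.64, the lowest of the 12 nearest positions. At FGF2 (plus strand, chr4:122826682-122898236, start 122826831) the midpoints were at -89 bp (score 12.3) and 241 bp (score 17.3), 330 bp apart. Another FGF2 transcript starts further upstream, at 122826682, and there the distance across was 110 bp.

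**Figure D1:**
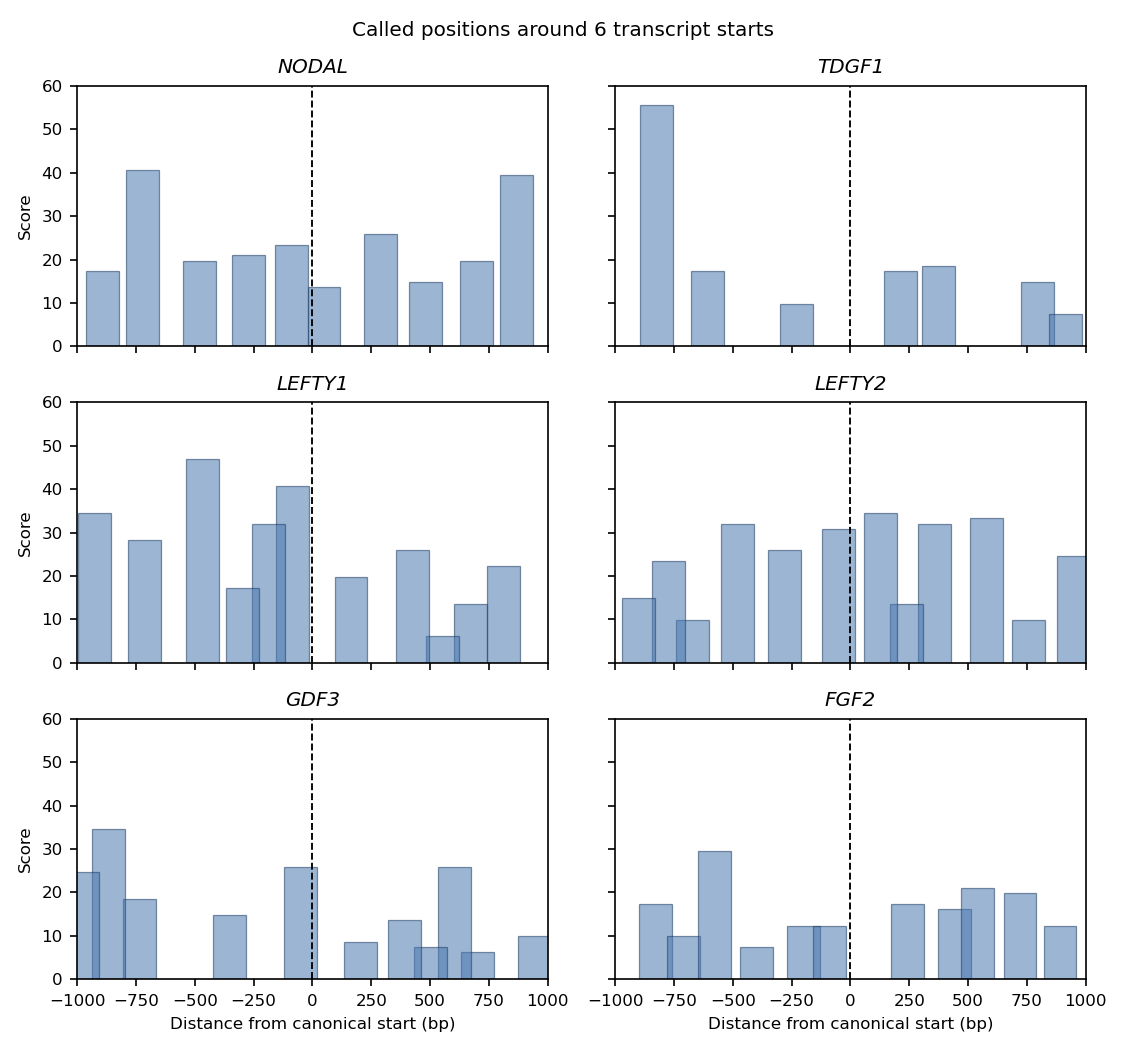
Scores of the called positions (vertical axis, authors' scale) against the distance of their midpoints from the canonical start (horizontal axis, bp, transcript direction), 1 panel per gene. Each bar is 140 bp wide, as the interval is, and the dashed line is the start. TDGF1 has an uncovered stretch of 305 bp over its start, in sequence copied on chromosome X. NODAL has no such stretch, and LEFTY1 and LEFTY2 have bars of 30.8 to 40.7 just upstream.

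Over all 6 genes the median distance across the start was 252.5 bp, and over all genes it was 230 bp with quartiles of 180 and 320. The nearest downstream midpoint lay at a median of 183.5 bp, against 113 bp over all genes, and its median score was 17.3, against 22.2. A downstream position counted as high when its score reached the upper quartile of its chromosome. This held for 2 of the 6 genes, LEFTY2 and FGF2, where FGF2 sat on the limit of 17.3 for chromosome 4, and for 59.1% of all genes.

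Within 1 kb centered on the start, the mean score separated the LEFTY genes from FGF2. LEFTY1 had 6 positions with a mean of 30.4, above 1015 of 1092 GC-matched windows, whose median was 22.9. LEFTY2 had 6 with a mean of 28.2, above 894 of 1045. FGF2 had 5 with a mean of 13.1, and 6 of its 65 matched windows were lower. Set against the starts of other protein-coding genes with a like GC content, LEFTY1 was above 280 of 311, LEFTY2 above 264 of 316 and FGF2 above 2 of 81. TDGF1, whose window is partly copied on chromosome X, had 3 positions in it, and 1 of 48 such starts had fewer. Its density was 0.60 times the matched median there, and 1.2 times around its most upstream start. NODAL, with 6 positions and a mean of 19.7, and GDF3, with 4 and a mean of 15.7, lay within the quartiles of the mean scores of their matched windows.

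Other signaling genes were taken from a list of 28 ligands, receptors and transducers, all found. The list is wider than the NODAL pathway, since it includes BMP4 and the FGF receptors FGFR1, FGFR2, FGFR3 and FGFR4. Of these, 8 (28.6%) had no midpoint in the 200 bp upstream, near the 26.7% of all genes, and 12 (42.9%) had a high downstream position, against 59.1% of all genes. By role, 2 of 8 ligands, convertases and inhibitors, 2 of 9 receptors and 4 of 11 transducers had no upstream midpoint. Their median distance across the start was 235 bp. The longest were at CFC1, a co-receptor related to TDGF1, where the midpoints on either side lay 260795 bp apart, and at the activin receptor ACVR2A (490 bp). At CFC1 the nearest midpoints were at -117682 and 143113 bp. No position was called in all of that stretch, so the value does not describe the start. Why none was called was not tested, and CFC1 is counted above among the receptors with no upstream midpoint. The shortest, 100 bp each, were at the NODAL receptor ACVR1C and the FGF receptor FGFR4.

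Taken over the window as a whole, FGF2 held more positions, closer together, than nearly all of its matched windows. Its 473 positions lay at 5.17 per kb, against a matched median of 4.75, and 339 of 347 matched windows held fewer. The median distance between neighboring midpoints was 167.5 bp at FGF2 and 180 bp in matched windows, and 0 of 346 windows had a shorter one. Neighbors closer than 140 bp, whose intervals overlap, made up 31.8% at FGF2 against a matched median of 25.2%, with 342 of 346 windows lower. This last measure was chosen after the values were seen. The 10 kb upstream of the gene held 5.90 per kb, and 2455 of 2465 matched windows held fewer. In consecutive 10-kb bins from the upstream end, the density was 5.90, 5.70, 6.00, 5.10, 4.70, 4.60, 5.00, 4.80 and 4.60 per kb. The first bins lay above the whole-window matched median of 4.75. From the 4.70 bin onward they lay on either side of it. The bins were not matched for GC one by one, and neither is the 4.37 per kb over chromosome 4. The median score of the window was 14.8, with a matched median of 13.6. NUDT6, on the opposite strand, overlaps the end of FGF2.

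Over its whole window, NODAL lay on the high side in density and score. Its 204 positions were at 5.66 per kb, with a matched median of 5.44 and 152 of 184 windows lower, and its median score was 19.7 against 17.3, with 148 of 184 lower. Its upstream flank had a median score of 22.2, above 689 of 699 matched windows, but held 5.20 positions per kb against 5.40, with 173 of 704 windows lower. The downstream flank, which overlaps EIF4EBP2, held 5.90 positions per kb, more than 1218 of 1268.

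TDGF1 lay on the low side in density and median score. It had 135 positions at 4.83 per kb against 5.26, with 55 of 484 windows lower. The median score was 14.8 against 16.0, with 18 of 481 lower and 89 equal. Its mean score, 17.2 against 17.4 with 182 of 481 lower, lay within the matched quartiles. The gene body alone held 34 positions at 4.29 per kb, and 61 of 1345 matched windows held fewer. Its scores were not low, with a median of 17.3 equal to the matched median and a mean of 19.2 above 1102 of 1333 matched windows. GDF3 also had 135 positions, at 5.19 per kb against 5.27, with a median score of 14.8 against 16.0.

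The LEFTY genes were close to their matched windows over this longer range. LEFTY1 had 252 positions at 5.59 per kb, equal to the matched median, and a median score of 19.7, also equal. LEFTY2 had 131 at 5.29 per kb against 5.57, with 69 of 427 windows lower, and a median distance of 180 bp against 170. The annotated LEFTY1 gene is 25101 bp long because of a second transcript, whereas its canonical transcript spans 2865 bp.

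**Figure D2:**
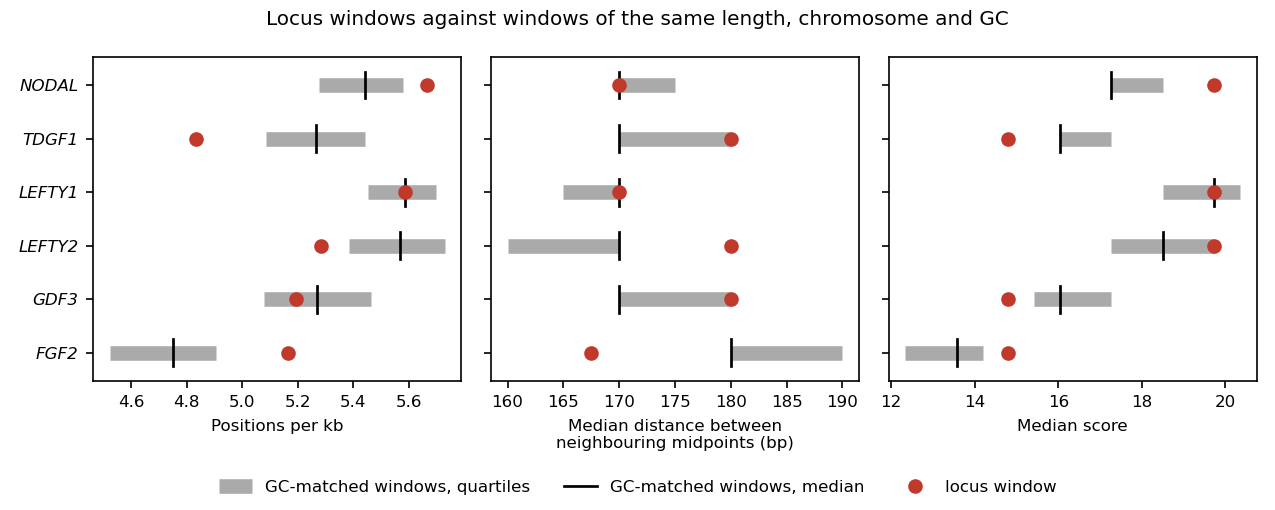
Positions per kb, median distance between neighboring midpoints (bp) and median score of each locus window (red points), with the median (black ticks) and quartiles (gray bars) of windows of the same length, chromosome and GC content. FGF2 lies above its bar in density (5.17) and score (14.8) and below it in distance (167.5 bp). TDGF1 lies below its bar in density (4.83) and score (14.8), and GDF3 in score (14.8). NODAL lies above its bar in density (5.66) and score (19.7). LEFTY2 lies below its bar in density (5.29) and above it in distance (180 bp), and LEFTY1 lies within its bars.

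Within the windows, single scores ran from 4.94 at FGF2 to 55.5 at TDGF1. TDGF1 had a score of 55.5 at 2 positions, one at -826 bp and the other at -12226 bp in the upstream flank. They are printed because they are the highest of all 1330, from the GRCh38 reference on the plus strand, with no part marked.
TDGF1 at -826 bp (chr3:46576892-46577031): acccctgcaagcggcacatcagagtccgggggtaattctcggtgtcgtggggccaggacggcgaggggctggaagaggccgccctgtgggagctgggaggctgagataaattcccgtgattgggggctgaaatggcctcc
TDGF1 at -12226 bp (chr3:46565492-46565631): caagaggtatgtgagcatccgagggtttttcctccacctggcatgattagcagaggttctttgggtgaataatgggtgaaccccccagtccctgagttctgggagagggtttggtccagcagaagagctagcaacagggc

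Their GC content was 64.3% and 53.6%. The highest score was 44.4 at NODAL, in its upstream flank at -15101 bp, and 43.2 at LEFTY2, at -7622 bp. LEFTY1 reached 48.1 at 2 positions, at 6884 bp and at -18246 bp. GDF3 reached 35.8 at -1427 bp, and FGF2 reached 40.7 at 2 positions in its introns, at 20101 bp and 54251 bp.

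Exons and introns of the canonical transcripts differed in opposite ways. NODAL exons held 15 positions with a median score of 27.1, and its introns 42 with a median of 19.7. In TDGF1 the order was the other way, with 7 exonic positions at a median of 9.87 and 12 intronic ones at 19.7. The midpoints of all 7 lie in sequence with a near-identical copy on chromosome X, where they are 7 of the 8 midpoints called. The copy spans at least 90% of the 3 positions in the 3′UTR (median 7.40). It spans less of the 4 in coding sequence (median 14.2). No exonic midpoint lies outside copied sequence, so the parts of exon and copy were not tested. FGF2 exons, mostly its 3′UTR of 5843 bp, held 27 positions at a median of 11.1, against 14.2 over 336 in its introns. The medians were 13.6 and 14.2 in LEFTY1, 19.1 and 19.7 in LEFTY2, and 19.1 and 14.8 in GDF3, from 6, 12 and 6 exonic positions. The whole gene body differed from its flanks by a median score of 0 in NODAL and LEFTY2, 2.47 in TDGF1, 1.23 in GDF3, -1.23 in FGF2 and -1.85 in LEFTY1, where the median over 19092 genes was 0 with quartiles of -1.23 and 1.23. With flanks of 5 kb the difference was 0 in TDGF1 and -1.23 in GDF3. Exons, introns, gene bodies and flanks were not matched for GC content here, and its part in these differences was not tested.

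**Figure D3:**
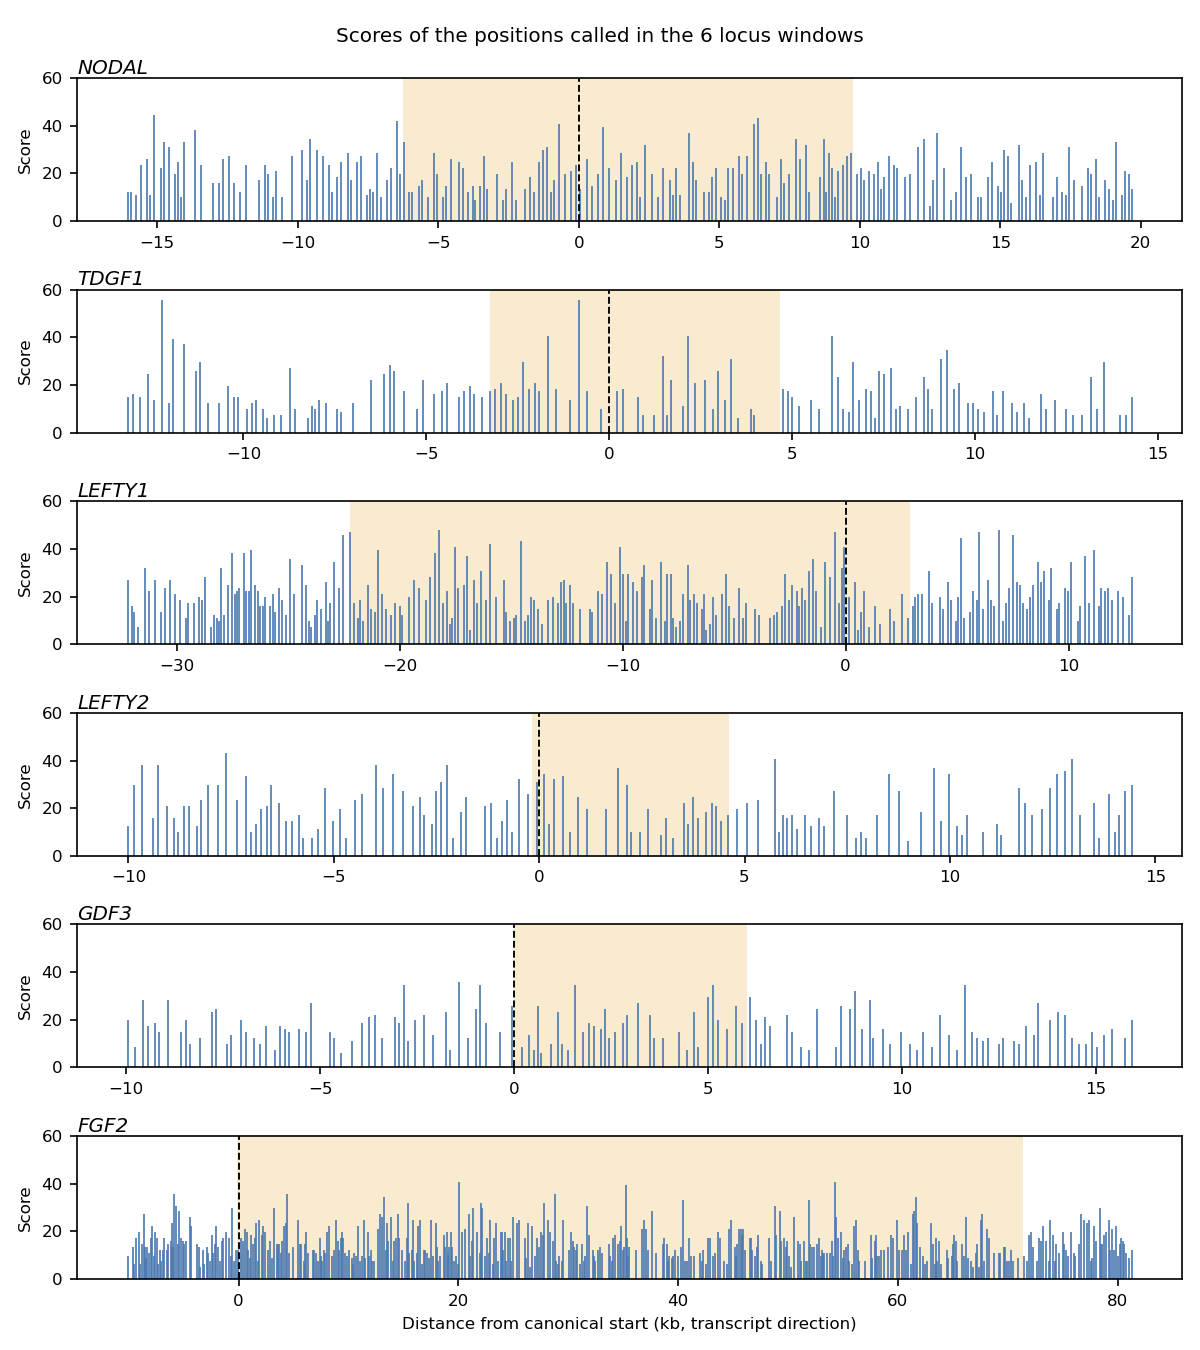
Scores of all 1330 positions (vertical axis, authors' scale) against the distance of their midpoints from the canonical start (kb, transcript direction), 1 row per locus. The shaded span is the annotated gene body and the dashed line the canonical start. The highest lines are the 2 TDGF1 positions at 55.5, and the widest empty stretch is at the 3′ end of TDGF1.

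Low values of TDGF1 were found where its sequence has a near-identical copy. The gene has a processed copy on chromosome X, and 5 stretches of the TDGF1 window, 2433 bases in all, matched it with 97.4% to 100.0% identity. They included the sequence from -516 to 216 bp around the start, which holds the upstream bases printed above. In the matching bases 8 positions were called, at 3.29 per kb with a median score of 9.87. The other 25491 bases held 127, at 4.98 per kb with a median of 14.8. The uncovered 305 bp at the start matched chrX:110520787-110521091 with 98.7% identity. The widest uncovered stretch of the window, 640 bp at the 3′ end of the gene (chr3:46581822-46582461), matched chrX:110522271-110522909 with 98.3%. On X, 4 positions were called over the 2482 bp of the copy, with a median score of 9.87. How reads that match both places were treated is not stated, and its part in the TDGF1 values was not tested. This comparison was chosen after the values were seen.

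**Figure D4:**
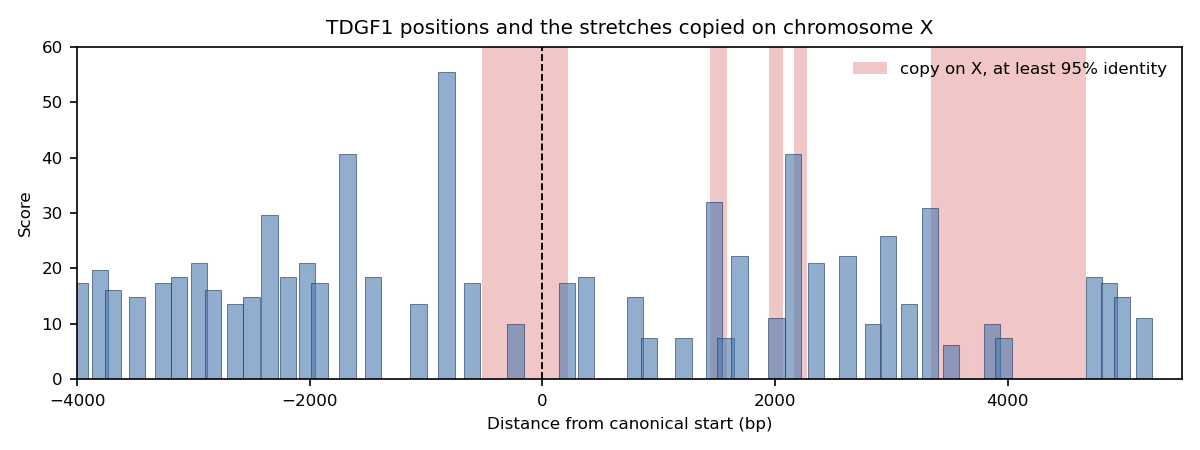
Scores of the TDGF1 positions (bars of 140 bp, authors' scale) against the distance of their midpoints from the canonical start (bp), with the stretches that have a copy of at least 95% identity on chromosome X shaded. The start and the 3′ end lie in shaded stretches with few and low bars, and the 55.5 position at -826 bp lies outside them.

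Counting any place in the genome, 24 of the 135 TDGF1 positions (17.8%) had a copy of at least 95% identity over at least 90% of their length, and their median score was 9.87, against 16.0 for the others. At the other genes this share was 4.02% (FGF2) to 9.63% (GDF3). The median scores with and without a copy were 12.3 and 16.0 at GDF3, 16.0 and 19.7 at LEFTY1, 19.1 and 19.7 at NODAL, 20.4 and 19.7 at LEFTY2 and 14.8 in both at FGF2.

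LEFTY1 and LEFTY2 are themselves near-identical in part, with starts 52074 bp apart. An alignment of the windows paired 4657 bases at 88.0% identity, with a longest stretch of 239 identical bases. Of 25 LEFTY1 positions in aligned sequence, 9 (36.0%) had a LEFTY2 midpoint within 30 bp of the same base, while 30.4% of the aligned bases lay that close to a LEFTY2 midpoint. With only the alignments of at least 85% identity, a limit set after the values were seen, it was 4 of 11 (36.4%) and 28.1%. Of the 9 pairs, LEFTY2 had the higher score in 6, and in each of the 4 within the 85% limit. Identity under the 9 ran from 75.4% to 99.3%. They include a position in the LEFTY1 downstream flank aligned to a LEFTY2 intron, so not all join like parts of the genes. In 3 places with 97.9% to 99.3% identity, picked out after the values were seen, the midpoints lay 6 to 10 bp apart, and LEFTY1 had the lower score in each. In exon 4 the scores were 9.87 at LEFTY1 and 22.2 at LEFTY2, in exon 3 they were 8.64 and 19.7, and in intron 1 they were 7.40 and 19.7. Of the positions next to the starts, which lay 36 to 38 bp apart in the alignment and so outside the 30-bp limit, the upstream one was higher at LEFTY1 (40.7 against 30.8, 85.6% identity) and the downstream one was higher at LEFTY2 (34.5 against 19.7, 92.1% identity). LEFTY2 had its widest uncovered stretch, 330 bp over exon 2 and intron 2, in sequence that matched LEFTY1 with 96.4% identity, and there LEFTY1 had a position with a score of 16.0. How reads were shared between the copies is not stated, and its part in these differences was not tested.

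**Figure D5:**
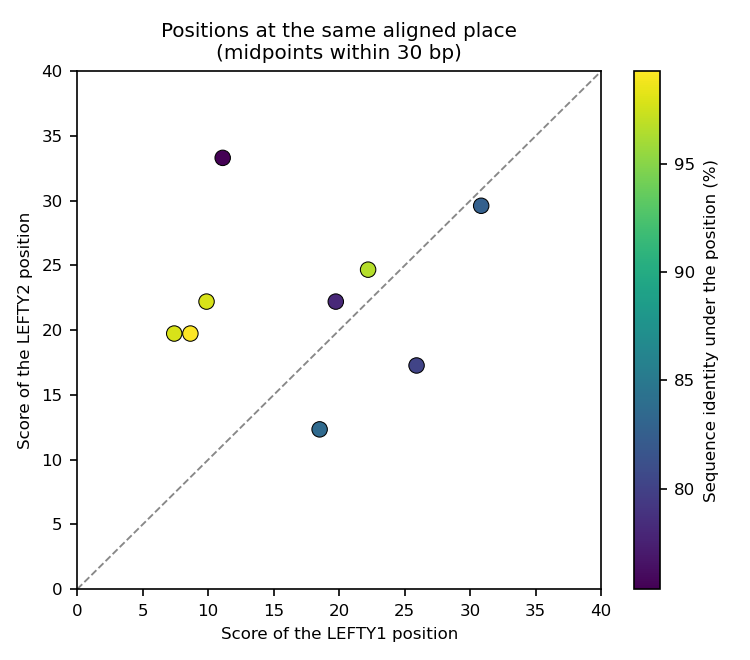
Score of each LEFTY1 position (horizontal axis) against that of the LEFTY2 position whose midpoint lies within 30 bp of the same aligned base (vertical axis), for 9 pairs, colored by the sequence identity under the position (%). The dashed line marks equal scores. The 3 pairs at 97.9% to 99.3% identity have LEFTY1 scores of 7.40 to 9.87 and LEFTY2 scores of 19.7 to 22.2.

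The windows were searched on both strands for short motifs of factors that act with the pathway. These were AATCCACA, the site of FOXH1, ATGCAAAT, the octamer bound by POU factors, and GTCTAGAC, the palindrome bound by SMAD proteins. None of the 3 motifs contains another. A match is a run of letters, not a bound site. FOXH1 letters occurred 16 times, or 6.37 per 100 kb, against 4.51 per 100 kb over the 5 chromosomes. LEFTY1 had 5 of these, and 1 of its 164 matched windows had as many or more. NODAL had 4, with as many or more in 9 of 184 matched windows, and LEFTY2 had 3, with 21 of 427. At least 1 match stood in 73.9% of the windows matched to NODAL. FGF2 had 3, with as many or more in 271 of 347, TDGF1 had 1, with 339 of 484, and GDF3 had 0. Octamer letters occurred 26 times, at 10.3 per 100 kb against 10.7.

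FOXH1 letters lay inside a called position, within 70 bp of its midpoint, in 8 of 16 cases (50.0%), against 62.6% over the chromosomes. For the octamer it was 18 of 26 (69.2%) against 55.5%, and for the SMAD palindrome 1 of 2 against 63.9%. Over all 44 matches the share was 61.4%, with a 95% Wilson interval of 46.6% to 74.3% that covers counting error only, and the chromosomes gave 57.8%.

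In NODAL, LEFTY1 and LEFTY2, FOXH1 matches came in close pairs. Of the 16, 6 (37.5%) had another within 100 bp, against 1.47% of the matches on the 5 chromosomes. This measure was also chosen after the matches were seen. The pairs were 89 bp apart in NODAL, 74 bp in LEFTY1 (at -10407 and -10481 bp) and 85 bp in LEFTY2 (at -4526 and -4611 bp). In each pair, 1 match lay inside a called position and the other outside, 75 to 81 bp from the nearest midpoint. How often paired matches on the 5 chromosomes lie this way is not given, so it is not read as a trait of these genes. The NODAL pair is in intron 1, at 1075 and 1164 bp, and the midpoint nearest to the first, 14 bp away, had a score of 22.2. Its sequence is printed on the NODAL strand from GRCh38, with the FOXH1 letters in capitals.
NODAL intron 1 (chr10:70440493-70440629, minus strand): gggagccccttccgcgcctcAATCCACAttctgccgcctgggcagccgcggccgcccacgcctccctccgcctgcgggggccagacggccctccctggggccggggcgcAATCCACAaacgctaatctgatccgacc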

How the data were processed

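The authors digested hiPSCs with 5 MNase concentrations, added a yeast spike-in, trimmed reads with Trimmomatic 0.40 and ran nucMACC 3.1 under Nextflow 25.10.4 on GRCh38, leaving out 636 blacklisted regions. The deposited score is a signal per position, called on pooled libraries. The runs pooled, the caller and the scaling are not given in the sources used here. Of the scores, 99.9998% were whole steps of 1.23 (tolerance 0.001 step). Columns left unused numbered 0.

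Gene models were GENCODE 44, where the study's methods name release 48. The midpoint was the start plus 70 bp. Matched windows were all tiles of the chromosome with GC within 1 point and under 1% unsequenced bases. Copies were sought with BLAST 2.17.0. Scripts ran on NumPy 2.4.6 and pysam 0.24.0 in Python 3.11.15, with SciPy 1.17.1 for intervals and matplotlib 3.10.9 for plots, and were tested on simulated positions.

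For each gene, the nearest positions on either side of the start and the highest-scoring one are named. Of the list of 28 other signaling genes, the 2 longest and 2 shortest distances are named. Members, lists and tests were chosen with earlier results of these data known. The measures of close neighbors, 10-kb bins, paired FOXH1 matches, motif counts in matched windows and copies of uncovered stretches were added after values were seen, and each is reported.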

Additional observations from a re-analysis of the deposited data

How the results depend on the processing

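No paired analysis was possible because all libraries share 1 call set, and for the same reason no library could be left out. Other flanks, GC tolerances, tiles, matched windows, starts, position sets and limits gave 49 values for 11 summary results, of which 43 stayed close to the reported ones and 6 moved. In start windows of 500 bp the density relative to matched windows was 0.833, from 1.10 in 1 kb. Leaving out positions that score below the median, the distance across the start had a median of 517.5 bp, from 252.5. With 300 bp upstream, 0 genes had no midpoint, from 1. Against positions of the same GC content, 1 downstream position was high, from 2. For the changed distance and these changed counts no value over all genes is given, so they have no background. Within 50 bp, 15 LEFTY1 positions had a LEFTY2 partner, from 9, and with alignments of at least 85% identity, 4 did. Values of single genes gave 241 alternatives, of which 19 moved and 11, all at the start windows, changed side of the matched median (4 at NODAL, 3 at TDGF1, 2 at GDF3 and 1 each at LEFTY1 and LEFTY2). The mean score of the start window stayed above matched windows at LEFTY1 (1.19 to 1.35 times) and LEFTY2 (1.07 to 1.24 times) and below them at FGF2 (0.662 to 0.777 times). Over the whole window FGF2 stayed at 1.06 to 1.19 times the density of its matched windows and TDGF1 at 0.796 to 0.925. Without the bases copied on X, TDGF1 was at 0.946, from 0.918, an alternative chosen after the values were seen. The score of GDF3 relative to its flanks turned from 1.23 to -1.23 with flanks of 5 kb, and that of TDGF1 went from 2.47 to 0. The list gives no read totals, so the error of a single score is unknown.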
